A study of Homo sapiens with 15 samples.

Results

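The genes examined here encode enzymes that write and erase methyl groups on lysines of histones H3 and H4, together with members of Polycomb repressive complex 2 (PRC2). They were listed by name and by the mark they act on, with earlier results of these data known. All 46 were found, each as 1 entry among the 58302 genes of the count tables. They comprise 26 genes of methyltransferase families, 5 other PRC2 members and 15 demethylases, and lie on 17 chromosomes, 4 of them on chromosome X.

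RNA-seq was carried out in triplicate on C4-2B, a prostate adenocarcinoma line that descends from LNCaP, carries the label wild type and was grown in RPMI with serum. The series also labels DKD and ER cells, each with scr (scrambled) or siPax5 (siRNA to Pax5) added, which were not analysed here. No comparison between cell lines or treatments was therefore made, and each value describes 1 cell line over 3 libraries. The study's methods describe its experiments in general as independently replicated, but neither they nor the labels say that these libraries came from separate cultures, so the spread between them may be technical.

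Methylation of a histone lysine works through proteins that bind it, and its effect depends on the residue. Methylation of H3K4 marks promoters and enhancers in use, H3K36 and H3K79 methylation lie along transcribed genes, H3K9 methylation marks heterochromatin, H3K27 trimethylation marks genes silenced by Polycomb, and H4K20 methylation is tied to chromosome condensation and DNA repair. Methyltransferases, most of them with a catalytic SET domain, use S-adenosylmethionine as donor. Demethylases either carry a JmjC domain, which needs iron and 2-oxoglutarate, or use a flavin. In prostate cancer EZH2, the main catalytic subunit of PRC2, is known for its rise in advanced and neuroendocrine disease.

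Levels are given as TPM, the read count of a gene scaled by its length and by the depth of the library, as mean ± SD over the 3 libraries unless stated otherwise. Values on canonical lengths divide the same counts, taken over all exons of a gene, by the length of its canonical transcript. Reads outside that transcript raise these values, so they are not levels of that transcript. The libraries held 44992971, 49569026 and 46232076 counts, and a member had between 545 and 20593 counts in a library. The luminal markers KLK3, KLK2, TMPRSS2, KRT8 and KRT18 were all expressed, from 197 TPM (KRT8) to 1988 TPM (KLK3) on exon-union lengths. On canonical lengths they ran from 240 TPM (TMPRSS2) to 4255 TPM (KLK3), with KRT8 at 514 TPM. The neuroendocrine markers CHGA, SYP and CHRNB2 lay between 1.11 and 1.38 TPM. Of the basal markers TP63 had 0 counts, which allows up to 0.00891 TPM, and KRT5 had 1 count over the 3 libraries. The leukocyte marker PTPRC had 2, 0 and 0 counts and the endothelial marker PECAM1 had 2, 6 and 6, while the fibroblast gene COL1A1 was at 7.09 ± 0.581 TPM.

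Every member was expressed. All 46 had a TPM of at least 1 in each of the 3 libraries, against 32.8% of all genes listed and 61.2% of protein-coding genes. The median over the members was 33.3 TPM, at percentile 63.5 of expressed protein-coding genes, whose own median was 22.2 TPM. Of the members, 33 were above that median and 13 below it. The levels spanned 31.7-fold, from PHF19 at 5.80 TPM to KDM6A at 184 TPM. Between them, 43 of the 46 lay between 10 and 75 TPM. In the order of levels, 21 of 45 neighbouring pairs had library values that did not overlap, and 24 did overlap, so that much of the order within this band is not resolved. In a bulk sample fewer cells with a transcript and less RNA per cell cannot be told apart.

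**Figure D1:**
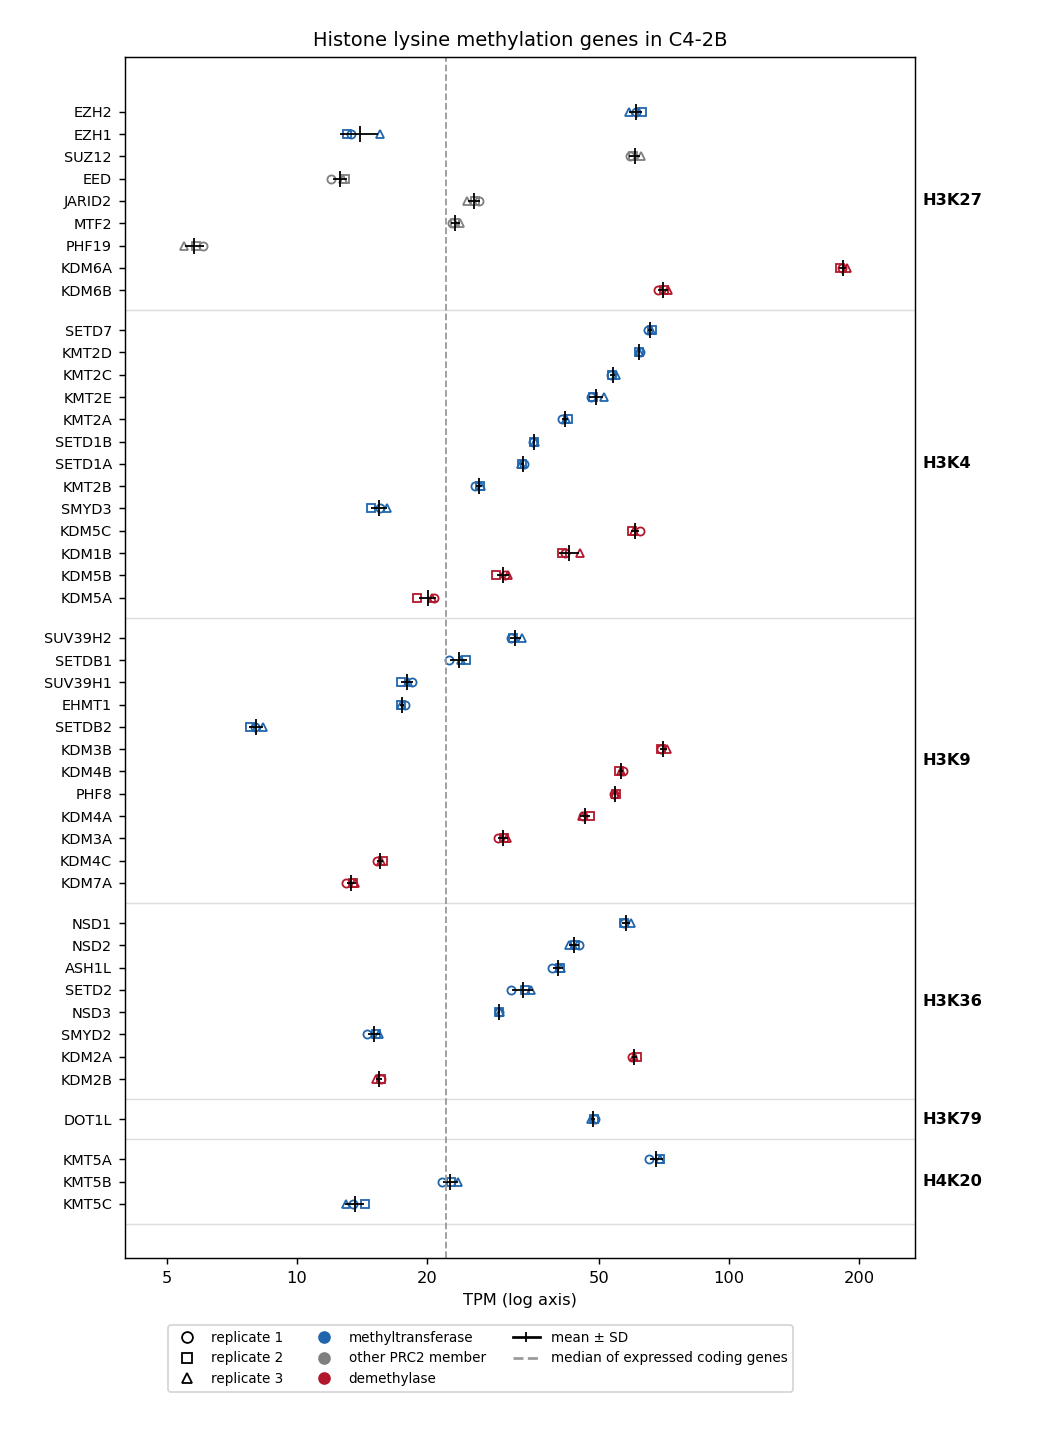
TPM of the 46 genes in each C4-2B library on a log axis, grouped by histone mark and role, with the mean ± SD over 3 libraries. KDM6A stands apart at the high end and SETDB2 and PHF19 at the low end, and 33 genes lie above the median of expressed protein-coding genes (dashed line).

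The opposing enzymes of H3K27 showed the widest contrast in summed TPM of 4 marks on exon-union lengths, though not on canonical transcript lengths, and the sequences before their start sites are shown for that reason. RefSeq promoter sequences (GRCh38.p14) were matched for 43 members. The 150 bases before the RefSeq start site nearest to that of the canonical transcript follow, 5′ to 3′ on the strand of the gene. Capitals mark CCAAT boxes (CCAAT or its complement ATTGG) and GC boxes (GGGCGG or its complement CCGCCC), and in EZH1 also GCGCATGCG, letters from the motif of NRF1.
EZH2 (chr7:148884292-148884441, minus strand): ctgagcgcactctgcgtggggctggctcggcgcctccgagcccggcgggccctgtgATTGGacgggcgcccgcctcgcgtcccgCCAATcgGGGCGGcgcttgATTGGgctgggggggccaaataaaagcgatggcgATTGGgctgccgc
EZH1 (chr17:42745041-42745190, minus strand): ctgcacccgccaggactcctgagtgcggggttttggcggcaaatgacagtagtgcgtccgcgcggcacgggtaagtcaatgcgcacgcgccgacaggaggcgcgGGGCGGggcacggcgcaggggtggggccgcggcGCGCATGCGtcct
KDM6A (chrX:44873038-44873187, plus strand): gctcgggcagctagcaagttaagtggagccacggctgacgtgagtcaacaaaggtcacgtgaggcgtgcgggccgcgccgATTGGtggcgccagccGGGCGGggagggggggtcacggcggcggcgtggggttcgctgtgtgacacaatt
KDM6B (chr17:7834067-7834216, plus strand): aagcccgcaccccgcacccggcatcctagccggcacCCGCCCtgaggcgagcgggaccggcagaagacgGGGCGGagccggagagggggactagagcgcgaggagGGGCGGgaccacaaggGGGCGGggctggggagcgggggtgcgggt
The EZH2 stretch held 4 CCAAT boxes and 1 GC box, and that of EZH1 held 1 GC box, no CCAAT box and 1 match to the NRF1 letters. The KDM6A stretch had 1 CCAAT box and 1 GC box, and the KDM6B stretch had 4 GC boxes. The KDM6B stretch precedes a start site at 7834217, upstream of 7839904, where the exons counted for KDM6B begin. These matches are descriptions of letters and not of bound sites.

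EZH2 (ENSG00000106462, chromosome 7, 148807383 to 148884321, minus strand) was at 60.9, 62.9 and 58.7 TPM in replicates 1, 2 and 3. EZH1 (ENSG00000108799, chromosome 17, 42700275 to 42745049, minus strand), its paralog with weaker catalytic activity, was at 13.3, 13.1 and 15.6 TPM. Every EZH2 value was above every EZH1 value. The log2 ratio within a library was 2.12 ± 0.19 (SD, n = 3), which is 4.35-fold, and its lowest value was 1.91 in replicate 3. EZH1 was the member with the largest spread, with a coefficient of variation of 9.96%, and it was high in replicate 3.

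The other core subunits of PRC2 differed from each other. SUZ12, a scaffold that the complex needs to be stable, was at 59.1, 60.2 and 62.5 TPM, and its range overlapped that of EZH2. EED, which binds trimethylated H3K27 and stimulates the enzyme, was at 12.03, 12.9 and 12.8 TPM, below SUZ12 in every library. On the length of the canonical transcript EED was at 28.6 TPM against 59.6 TPM for SUZ12, because its exon union is 3.36 times as long as that transcript.

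Among the accessory subunits, which direct PRC2 to chromatin, JARID2 was at 26.5, 25.9 and 24.8 TPM. MTF2 and PHF19 are related proteins that bind methylated H3K36 through Tudor domains. MTF2 was at 22.8, 23.2 and 23.8 TPM and PHF19 at 6.08, 5.84 and 5.48 TPM. PHF19 was the lowest member on exon-union lengths, while on canonical lengths SETDB2, at 5.86 TPM, was below PHF19, at 6.36 TPM. Every JARID2 and MTF2 value was above every PHF19 value, and MTF2 exceeded PHF19 by 2.01 ± 0.11 on the log2 scale (SD, n = 3). JARID2 and PHF19 both had their lowest TPM in replicate 3, where MTF2 had its highest.

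KDM6A (UTX, chromosome X, 44873177 to 45112602, plus strand), a demethylase of H3K27 that is also a subunit of the KMT2C and KMT2D complexes, was at 182, 181 and 188 TPM. This is percentile 95.1 of expressed protein-coding genes and 2.60 times the next member. That member was KDM6B (JMJD3), the inducible enzyme of the pair, at 68.6, 70.7 and 72.4 TPM. All KDM6A values were above all KDM6B values, and no exon base of KDM6A lies under another gene. KDM6A has a homolog on chromosome Y, and a read that aligned equally well to both was not counted. KDM6A was also the highest member on the length of the canonical transcript, at 145 TPM, whereas KDM6B moved from rank 2 to rank 14 of 46.

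Summed over genes, EZH1 and EZH2 came to 74.2, 76.0 and 74.3 TPM and KDM6A and KDM6B to 251, 252 and 260.1 TPM. The demethylase sum was 3.397 times the methyltransferase sum in the mean, and the log2 ratio of methyltransferases to demethylases was -1.76 ± 0.040 (SD, n = 3). That difference rested on KDM6A. Without it the log2 ratio was 0.085, in the opposite direction. Sums of transcripts say nothing of the activity of the proteins, and those of the other marks depend on how many genes are listed for each role. With 3 libraries the smallest two-sided p of an exact sign-flip test is 0.25, so no p-value is given for any ratio within libraries.

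**Figure D2:**
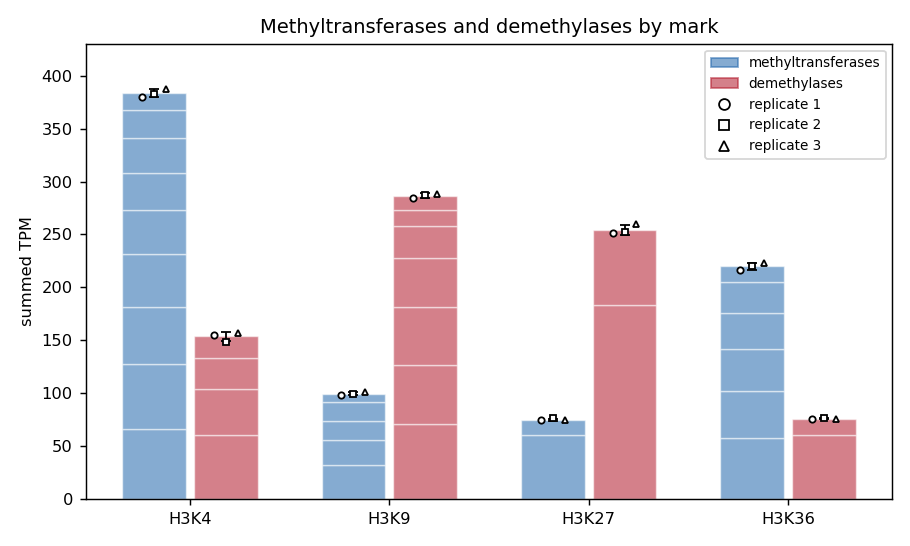
Summed TPM of methyltransferases and demethylases of 4 marks in C4-2B (bars from 0, divided by gene, with SD over 3 libraries and each library as a symbol). Demethylases exceed methyltransferases for H3K9 and H3K27, and methyltransferases exceed demethylases for H3K4 and H3K36, with more methyltransferases than demethylases listed for the latter pair.

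All 9 listed genes of H3K4 methyltransferase families were expressed, from 15.5 TPM (SMYD3) to 65.8 TPM (SETD7). KMT2D and KMT2C, large paralogs that monomethylate H3K4 at enhancers, were at 62.3, 62.0 and 62.0 TPM and at 53.2, 53.7 and 54.7 TPM respectively. KMT2D values did not overlap those of KMT2C. This order depends on the gene length used, since the log2 ratio of KMT2D to KMT2C was 0.20 ± 0.023 with exon unions and -0.061 ± 0.023 with canonical transcripts (SD, n = 3 each). KMT2A and KMT2B, which act at promoters with menin, were at 41.1, 42.4 and 41.9 TPM and at 25.9, 26.5 and 26.7 TPM. KMT2A was the higher in each library, with a log2 ratio of 0.66 ± 0.011 (SD, n = 3).

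SETD1A and SETD1B, the subunits that write most promoter H3K4 trimethylation, were close to each other at 33.6, 33.3 and 33.1 TPM and at 35.2, 35.4 and 35.6 TPM. SETD1B was the higher in 3 of 3 libraries, with a log2 ratio of SETD1A to SETD1B of -0.087 ± 0.021, and this ratio was 0.14 ± 0.021 on canonical lengths (SD, n = 3 each). KMT2E, which reads H3K4 methylation and is not known as an active enzyme, was at 49.3 ± 1.79 TPM. SETD7, whose substrates include many proteins other than histones, was at 65.1, 66.3 and 65.9 TPM. SMYD3, also active on cytoplasmic proteins, was at 15.5, 14.8 and 16.2 TPM, below every other gene of this group in all libraries on exon-union lengths. On the canonical length SMYD3 was at 39.3 TPM, above KMT2A (37.4), SETD1A (25.7), SETD1B (23.2) and KMT2B (21.6).

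Of the H3K4 demethylases, KDM5C was highest at 62.3, 59.7 and 60.2 TPM and KDM5A lowest at 20.8, 19.0 and 20.5 TPM. These JmjC enzymes and KDM5B remove di- and trimethylation. KDM5B lay between them at 30.4, 28.9 and 30.8 TPM, and the ranges of the 3 genes did not overlap. KDM1B, a flavin-dependent enzyme, was at 42.7 ± 2.27 TPM. Methyltransferases of H3K4 summed to 383 ± 3.79 TPM over 9 genes and demethylases to 154 ± 4.27 TPM over 4 (SD, n = 3). The medians over genes were closer, 41.8 and 36.4 TPM.

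The H3K9 methyltransferases listed were low in comparison with the demethylases listed for the same mark. SUV39H2 was the highest of the 5 at 31.3, 31.7 and 33.2 TPM and SETDB2 the lowest at 8.02, 7.78 and 8.36 TPM. SUV39H1 and SUV39H2 trimethylate H3K9 in heterochromatin near centromeres. SUV39H1 was at 18.5, 17.4 and 18.1 TPM, a log2 ratio to SUV39H2 of -0.83 ± 0.062 (SD, n = 3). Of its exon bases 20.3% lie under another gene, where reads were not counted, and on the remaining bases the ratio was -0.57 ± 0.062. SETDB1, which silences retroelements with TRIM28, was at 22.6, 24.6 and 24.0 TPM with 13.4% of its exon bases under another gene.

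EHMT1, which writes mono- and dimethylation of H3K9, was at 17.5 ± 0.218 TPM (SD, n = 3). This value rests on an exon union 4.36 times as long as the canonical transcript, the largest such ratio among the members. On the canonical length, by which the reads of all its exons were divided, EHMT1 was at 51.6 TPM, above the other 4 methyltransferases of H3K9. The place of EHMT1 within the group thus depends on the length used.

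Demethylases of H3K9 reached 69.6, 69.9 and 72.0 TPM for KDM3B, the highest on exon-union lengths, and were lowest for KDM7A at 13.0, 13.5 and 13.6 TPM. KDM3A, known as a coactivator of the androgen receptor, was at 29.2, 30.2 and 30.7 TPM, below KDM3B by a log2 ratio of -1.23 ± 0.022 (SD, n = 3). On canonical lengths KDM3A and KDM3B were at 58.3 and 56.4 TPM and the ratio was 0.050 ± 0.022. KDM4A, KDM4B and KDM4C act on trimethylated H3K9 and H3K36. KDM4A was at 45.9, 47.8 and 45.7 TPM. KDM4B was at 57.0, 55.8 and 56.3 TPM and KDM4C at 15.3, 15.8 and 15.7 TPM. All values of KDM4B were above those of KDM4A, and all values of KDM4A above those of KDM4C. The sizes of these gaps depend on length. The log2 ratio of KDM4A to KDM4B was -0.28 ± 0.048 on exon unions and -1.47 ± 0.048 on canonical lengths, and that of KDM4A to KDM4C was 1.57 ± 0.028 and 0.53 ± 0.028 (SD, n = 3 each). On canonical lengths KDM4B was the highest H3K9 demethylase, at 99.98 TPM. PHF8, which also acts on H4K20, was at 54.2, 54.7 and 54.4 TPM, in the mean 4.07 times its relative KDM7A.

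Over 5 methyltransferases and 7 demethylases, the H3K9 sums were 99.4 ± 1.498 and 287 ± 2.24 TPM (SD, n = 3). The log2 ratio was -1.53 ± 0.014 for sums and -1.37 ± 0.078 for medians over genes (SD, n = 3). Among the genes listed, demethylases were thus the higher role for H3K9 by both summaries. Each gene was counted for 1 mark only. KDM4A, KDM4B and KDM4C, which also act on H3K36, therefore entered the sums and medians of H3K9 and not those of H3K36.

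For H3K36, NSD1 was the highest methyltransferase at 57.3, 57.2 and 59.3 TPM and SMYD2 the lowest at 14.5, 15.2 and 15.5 TPM, both on exon-union lengths. NSD1, NSD2 and NSD3 write dimethylation of this residue, and all NSD1 values were above all NSD2 values, which were above all NSD3 values. NSD2 was at 45.0, 44.1 and 42.6 TPM and NSD3 at 29.3, 29.3 and 29.5 TPM. On canonical lengths the order of NSD1 and NSD2 turned, with 45.7 TPM for NSD1 and 77.6 TPM for NSD2, and SMYD2, at 28.6 TPM, was above NSD3 (28.1) and SETD2 (26.6), the lowest. SETD2, which writes most trimethylation of H3K36, was at 31.3, 33.8 and 34.9 TPM and lowest in replicate 1. ASH1L, another dimethylating enzyme, was at 40.3 ± 1.06 TPM.

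KDM2A and KDM2B, demethylases of H3K36 that bind unmethylated CpG through a zinc finger, differed by 3.89-fold. KDM2A was at 59.6, 61.3 and 60.4 TPM and KDM2B at 15.7, 15.6 and 15.2 TPM. The gap was 2.14-fold on canonical lengths. Sums for H3K36 were 219.9 ± 3.24 TPM over 6 methyltransferases and 76.0 ± 0.868 TPM over 2 demethylases (SD, n = 3), while the medians over genes were 36.8 and 38.0 TPM.

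DOT1L, the main H3K79 methyltransferase and one without a SET domain, was at 49.0, 48.8 and 48.0 TPM, with 11.5% of its exon bases under another gene. KMT5A, which monomethylates H4K20, was at 65.2, 69.4 and 69.3 TPM. The enzymes that add further methyl groups to H4K20 were lower. KMT5B was at 21.7, 22.7 and 23.6 TPM and KMT5C at 13.5, 14.4 and 13.0 TPM, with no overlap between the 3 genes.

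Related members were compared in 22 pairs within each library. In 21 of these the same gene was higher in all 3 libraries on exon-union lengths, the exception being SMYD2 and SMYD3, with a log2 ratio of -0.040 ± 0.070 (SD, n = 3). On canonical lengths that ratio was -0.46 ± 0.070, with SMYD3 the higher in all 3 libraries. In 10 pairs the difference was more than 2-fold in each library on exon-union lengths. The largest on exon-union lengths were EZH2 over EZH1, PHF8 over KDM7A and MTF2 over PHF19, each about 4-fold. SETDB1 exceeded SETDB2 by a log2 ratio of 1.56 ± 0.091 and KMT5B exceeded KMT5C by 0.74 ± 0.11 (SD, n = 3 each). On canonical lengths these ratios were 2.14 ± 0.091 and 0.27 ± 0.11. In 4 pairs the order turned on canonical lengths, namely KMT2D and KMT2C, SETD1A and SETD1B, NSD1 and NSD2, and KDM3A and KDM3B.

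**Figure D3:**
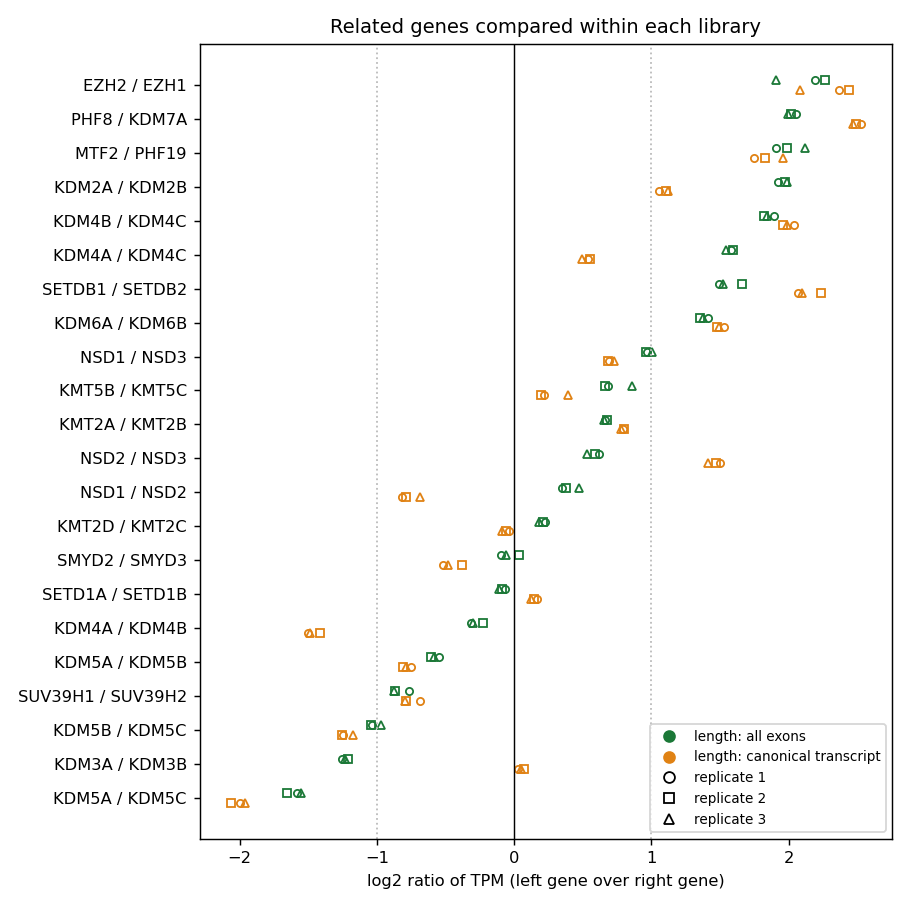
Log2 ratio of TPM between related genes in each C4-2B library (left gene over right gene, symbols by replicate), with the exon union (green) or the canonical transcript (orange) as gene length. Dotted lines mark 2-fold, and 4 pairs change sign between the lengths while libraries stay close together.

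The libraries themselves were compared for each gene by a chi-square test of the 3 counts against the scaled library sizes, halved because both mates of a read pair were counted. This test compares libraries, not conditions. None of the 46 members passed an adjusted p of 0.05, against 0.792% of all 22229 genes tested, and 6 members had an unadjusted p under 0.05, or 13.0%, against 11.3% of all genes. The lowest adjusted p-values were 0.0906 for EZH1, 0.102 for NSD2 and 0.109 for SETD2. Without the halving 9 members passed (EZH1, EZH2, KDM1B, KDM5A, KDM5B, KDM5C, KMT2E, NSD2 and SETD2), or 19.6%, against 17.3% of all genes. NSD2 and SETD2 passed when replicate 2 was left out, where 223 of all 20178 genes tested did (1.11%). With a correction for gene length NSD2 passed, beside 151 of all 22229 genes (0.679%).

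In size the differences between libraries were small. The median coefficient of variation over the members was 2.57%, from 0.229% (KMT2D) to 9.96% (EZH1), against a median of 2.82% over 9217 protein-coding genes with at least as many counts as the lowest member. In 41 of 46 members the highest library was less than 1.1 times the lowest. Replicate 3 was the highest library for 23 members and replicate 1 the lowest for 24. The deviation of replicate 3 from the mean was negatively related to the GC content of exons across the members, with a Spearman rho of -0.57 over 46 genes that share these libraries, and rho was -0.32 over the 9217 protein-coding genes. In replicate 1 it was 0.39 and 0.36. With a correction for GC content in the test between libraries, none of the members passed and 94 of all genes did.

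**Figure D4:**
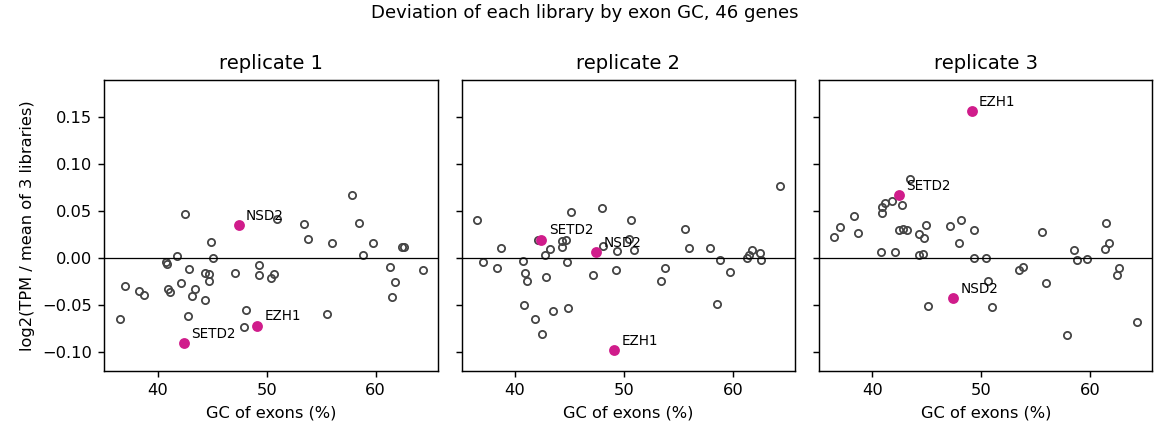
Log2 deviation of each library from the mean of 3 libraries against the GC content of exons for the 46 genes, with EZH1, SETD2 and NSD2, the genes of lowest p between libraries, in colour. Deviations fall with GC in replicate 3 and rise with it in replicate 1, and EZH1 lies highest in replicate 3.

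Partner genes of these enzymes were examined as lists. All 12 subunits of the COMPASS complexes listed, which hold the KMT2 and SETD1 enzymes, were expressed, from 16.6 TPM (PAGR1) to 124 TPM (HCFC1), with a median of 38.1 TPM. Of the exon bases of PAGR1 66.0% lie under another gene, where reads were not counted, and PAGR1 was at 46.5 TPM outside overlaps. On the canonical length it was at 4.93 TPM. That length is 3874 bases, against 1702 bases of exons counted, so it includes bases where no reads were counted. On canonical lengths HCFC1 was at 84.7 TPM, below WDR82 at 111 TPM. WDR5, which binds the catalytic subunits, was at 77.0 ± 0.708 TPM, above each of the 7 KMT2 and SETD1 genes on exon-union lengths. The histone chaperones RBBP4 and RBBP7 of PRC2 were at 100.1 ± 1.09 and 61.7 ± 1.31 TPM, or 81.3 and 135 TPM on canonical lengths, and the accessory genes AEBP2, PHF1 and EPOP were at 26.4 ± 1.36, 26.2 ± 0.693 and 42.0 ± 0.265 TPM (SD, n = 3 each).

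Levels of genes listed as cofactors or readers of the marks ranged widely. Of the H3K9 list, TRIM28 was at 429.9 ± 4.79 TPM and the heterochromatin proteins CBX1, CBX3 and CBX5 were at 113 ± 2.36, 140.4 ± 3.17 and 102 ± 1.48 TPM (214 TPM for CBX3 on the canonical length), whereas ATF7IP, which protects SETDB1, was at 20.02 ± 0.830 TPM. Among the Polycomb readers of H3K27 trimethylation, CBX6 was at 134 ± 1.24 TPM, CBX2 at 62.9 ± 0.826 TPM, CBX8 at 28.8 ± 0.380 TPM and CBX7 at 12.1 ± 0.121 TPM. In methyl donor supply, AHCY, which removes the product that inhibits methyltransferases, was at 304 ± 6.51 TPM and the S-adenosylmethionine synthase subunits MAT2A and MAT2B were at 167 ± 4.14 and 32.1 ± 1.73 TPM (SD, n = 3 each), with MAT2B at 54.2 TPM on the canonical length. None of the genes named here from these lists passed the test between libraries.

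The start regions of the members were rich in CpG. One RefSeq window of 300 bases was taken for each of 43 members, from 250 bases before the start site nearest the canonical start to 50 after it. Each of the 43 windows held at least 15 CpG, with a median of 30, against a median of 21 over windows of 18973 genes and 28 over those of 9855 expressed protein-coding genes. GC content had a median of 69.0% for members, 62.3% for all genes and 66.3% for expressed protein-coding genes. A CCAAT box was present in 19 of the 43 windows (44.2%) and in 37.4% of windows of expressed protein-coding genes, and a GC box in 33 (76.7%) and 73.7%.

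Longer motifs were rare, searched on both strands. The letters AAGATGGCG, from the motif of YY1, were in 6 of 43 member windows (13.95%), those of KDM5C, KMT2B, KMT5B, PHF19, PHF8 and SUV39H2. They were in 4.39% of windows of expressed protein-coding genes and 2.57% of all. These letters, like those of NRF1, were shortened by 1 base after a first search, in which fewer member windows held them. The shares are therefore descriptive, and enrichment was not tested. TTTGGCGC or TTTCGCGC, letters bound by E2F factors, were in the window of EZH2 alone, against 2.18% of expressed protein-coding windows. CCGGAAG, the core bound by ETS factors, was in 6 (13.95%) against 20.6%. TGACGTCA, the cyclic AMP response element, was in 2 (4.65%) against 3.57%, and GCGCATGCG, from the motif of NRF1, was in 1 (EZH1, 2.33%) against 3.92%. GGGCGG and CCAAT did not overlap in the 4 stretches printed.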

How the data were processed

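Total RNA of C4-2B cells was depleted of ribosomal RNA, made into directional libraries and sequenced as read pairs, in 3 libraries grouped by their titles. Per the labels and the file headers, the authors aligned reads to GRCh38 with STAR 2.7.0f and deposited raw gene counts made with featureCounts 1.6.3 and Ensembl release 90. The deposited gene length, another value per gene in the authors' tables, is the exon union. The recorded command set no strand, counted mates separately, and left out reads over several genes or places.

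From these counts TPM was computed over all 58302 genes, and symbols were matched for 57532. Canonical transcript lengths and gene types came from GENCODE release 44 on GRCh38. A gene was called expressed if its TPM was 1 or more in every library. Libraries were compared by a chi-square test with 2 degrees of freedom, divided by 2, for genes with at least 30 counts, on sizes scaled by TMM in edgeR 4.0.16, with Benjamini-Hochberg adjustment over all genes tested. On simulated read pairs of these libraries this called 0 of 22309 unchanged genes (1087 undivided) and 70.5% of 200 genes changed 2-fold in 1 library among 22270 tested. Pairs were drawn with both mates in the same gene and no variation beyond sampling, which is the model behind the halving. The 0 calls therefore do not measure false calls in real libraries. The 200 changed genes were drawn from all genes with at least 30 counts, while the lowest member had 1764 over its libraries. The 70.5% is therefore not the share expected for members. DESeq2 1.42.0 gave an alternative scaling.

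Members, lists, pairs and tests were chosen with earlier results of these data known, and promoter motifs after the data were examined. The motifs of YY1 and NRF1 were shortened by 1 base after a first search, in which fewer member windows held them. Of the lists, 1 gene is not reported here. Values per library are given for the members of related pairs, for the highest and lowest member by mark and role, and for members past the threshold. The disputed members left out in one alternative are KMT2E, SETD7, SMYD2, SMYD3 and SETDB2. Totals per library were 44992971, 49569026 and 46232076. The limit for 0 counts is the TPM of 3 counts over the 3 libraries and covers counting error only.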

Additional observations from a re-analysis of the deposited data

How the results depend on the processing

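All 46 members stayed expressed under every threshold, length, unit and left-out replicate run. The number of members differing between libraries was 9 without halving of the chi-square and 1 (NSD2) with a correction for gene length, and from 0 to 2 with 1 replicate left out. Over all genes it was 176, with 3835 without halving, 94 with a correction for GC content and 151 with a correction for gene length. With 1 replicate left out it was from 38 to 223 (38 without replicate 1, 44 without replicate 3). In simulated read pairs with no change the undivided test called 1087 of 22309 genes, fewer than the 3835 of 22229 observed. The median member level was 33.3 TPM, and 29.6 with canonical lengths, 31.96 outside overlaps, 48.2 when TPM was scaled without mitochondrial genes and the 10 genes of highest level, and 32.3 as a mean of log2(TPM + 1), and it was 97.2 CPM. The number of pairs past 2-fold ranged from 10 to 11, but the pairs were not the same. On canonical lengths KDM3A to KDM3B and KDM4A to KDM4C left the set. NSD2 to NSD3, KDM4A to KDM4B and KDM5B to KDM5C entered it. With CPM the same pairs left, and KMT2A to KMT2B, KMT5B to KMT5C and KDM4A to KDM4B entered.

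The log2 ratios of methyltransferases to demethylases were 1.32 (H3K4), -1.53 (H3K9), -1.76 (H3K27) and 1.53 (H3K36). With canonical lengths they were 1.45, -1.45, -1.22 and 1.49. With CPM they were 2.05, -1.84, -2.29 and 1.91. Outside overlaps the H3K9 ratio was -1.41. With disputed members left out the H3K4, H3K9 and H3K36 ratios were 0.72, -1.65 and 1.43. Medians in place of sums gave 0.20, -1.37 and -0.046, of which that for H3K36 changed sign in the mean but was within 1 SD (0.051) of 0 and not of one sign in the 3 libraries. Without KDM6A, chosen after the data were examined, the H3K27 ratio was 0.085, with EZH1 and EZH2 summed against KDM6B alone.

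With canonical lengths 4 pairs reversed: KMT2D to KMT2C at -0.061, SETD1A to SETD1B at 0.14, NSD1 to NSD2 at -0.76 and KDM3A to KDM3B at 0.050. Of single members, 40 of 46 moved by more than 1 SD with canonical lengths and 33 outside overlaps. These moves include a change in the sum over all genes by which TPM is scaled. Of the members, 28 have no overlapped exon base, and EZH2, which is among them, went from 60.8 to 58.0 TPM outside overlaps. JARID2, with an exon union only 1.002 times its canonical length, went from 25.7 to 17.4 TPM on canonical lengths. No paired analysis was possible because only C4-2B libraries were used, so no other group shares their replicate numbers.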

Other observations

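KDM6A, the highest member, lies on chromosome X beside the protein-coding genes FUNDC1, DUSP21 and DIPK2B, which were near 0. Its neighbours were looked up after the level of KDM6A was seen. FUNDC1 (44523639 to 44543001), a mitophagy receptor, had 8, 4 and 8 counts, DUSP21 (44844004 to 44844888) had 0 counts in each library, and DIPK2B (45148374 to 45200901) had 33, 12 and 14 counts, against 18867, 20593 and 19790 counts for KDM6A (44873177 to 45112602). KRBOX4 (46446857 to 46497422), the next protein-coding gene beyond DIPK2B in the tables, had 437, 457 and 409 counts.

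The choice of gene length moved some members more than any library did. For 11 of the 46 the exon union was more than 2 times as long as the canonical transcript, and for 9 the TPM rose by more than 1.5 times on the canonical length. These include EHMT1 (2.95 times), SMYD3 (2.53 times), EED (2.27 times), KDM3A (1.94 times) and SMYD2 (1.89 times). KDM4B moved from rank 12 to rank 2 and NSD2 from rank 18 to rank 4. Across the 46 members Spearman's rho between both sets of levels was 0.80, over genes that share counts. KDM6A was the highest member and PHF19 and SETDB2 the lowest pair on both lengths, in opposite order.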
